A study of Mus musculus with 13 samples.

Results

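Removal of the ROCK inhibitor was set against removal of forskolin in 5-compound (5C) cultures of damaged hepatocytes, and 1597 of 19884 tested genes differed between the removals. The members are the 4 libraries of the groups labelled 5C-G and 5C-F, 2 each, out of 13 libraries in 7 groups, compared across all genes of the table. The cells were hepatocytes from C57BL/6 mice, labelled wild type, whose livers had been injured chronically with CCl4, a hepatotoxin. They were isolated by collagenase perfusion and kept for 16 days in serum-free hepatocyte medium with the solvent DMSO, with 5C or with 5C less 1 compound. 5C holds GSK429286A (G), an inhibitor of the kinases ROCK1 and ROCK2, CID755673 (C), an inhibitor of protein kinase D, ETC-1002 (E), an AMPK activator, forskolin (F), an activator of adenylate cyclase, and Salidroside (S). Cells in 5C-G therefore had forskolin, CID755673, ETC-1002 and Salidroside but no ROCK inhibitor. Cells in 5C-F had the ROCK inhibitor and the other 3 of those compounds but no forskolin. DMSO cells had none of the 5, and the 5C and DMSO groups, 2 libraries each, are used here as references.

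The libraries of a group are called A and B in the order of the columns, and the letters pair nothing across groups. The study's methods describe its replicates as biological, and the labels do not say which animals or cultures A and B came from. The p-values rest on the spread between libraries of the same group, shared over all 7 groups. Total counts were 32119114 and 36478154 in the 5C-G libraries, 38668923 and 41906389 in the 5C-F libraries, and 30195867 to 45491932 over all 13. A and B differed beyond counting noise in every group with 2 libraries, and more in 5C-G and 5C-F (the SD across genes of A less B was 0.38 and 0.35 in log2 units) than in 5C (0.24) and DMSO (0.20). As a check of the labelled cell type, the hepatocyte marker Alb was the gene with the most counts in 5C-G A and in both 5C-F libraries, and Apoe in 5C-G B. RNA came from whole cultures, so fewer cells of a type and less RNA per cell cannot be told apart.

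The ROCK kinases phosphorylate myosin light chain, its phosphatase and LIM kinases, which raises actomyosin tension and stabilises actin filaments. Loss of free actin monomers lets the coactivator MRTF enter the nucleus and drive smooth muscle and cytoskeletal genes with serum response factor (SRF), and tension also acts on the YAP and TEAD regulators. Forskolin raises cyclic AMP, which activates protein kinase A, the transcription factor CREB and the exchange factors Epac1 and Epac2, and in liver this is the pathway of glucagon.

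A gene was called when its adjusted p was under 0.05 in edgeR's quasi-likelihood test over all genes and its log2 difference, always 5C-G minus 5C-F, was beyond 1. By this rule 8.03% of the tested genes differed between the 2 removals. Of these, 748 (3.76% of tested genes) were higher in 5C-G and 849 (4.27%) were lower. Beyond a log2 difference of 2 there were 149 higher and 295 lower genes. The libraries of the groups did not overlap in FPKM, fragments per kilobase of transcript and per sequencing depth, for any called gene, while 23.44% of all tested genes had both 5C-G libraries above both 5C-F libraries and 20.32% had both below. The count of calls was between 1158 (without 5C-G B) and 2007 (without 5C-G A) when 1 library was left out.

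Each removal was also tested against complete 5C. In 5C-G, 1485 genes (7.47%) were higher and 1122 (5.64%) lower than in 5C. In 5C-F, 534 (2.69%) were higher and 428 (2.15%) lower. These comparisons share the 5C libraries, so they are not independent. They are given side by side, and no overlap or correlation of the 2 was tested. Among the 849 genes lower in 5C-G than in 5C-F, the 5C mean lay within 1 log2 unit of 5C-F but not of 5C-G for 474 and the reverse held for 118. Among the 748 genes higher in 5C-G, 5C lay near 5C-F alone for 308, near 5C-G alone for 125, and below both groups by more than 1 log2 unit for 146. The DMSO mean lay within 1 log2 unit of 5C-G alone for 357 of the 748 higher and 294 of the 849 lower genes, and of 5C-F alone for 148 and 225. These are counts of positions, with no test.

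**Figure D1:**
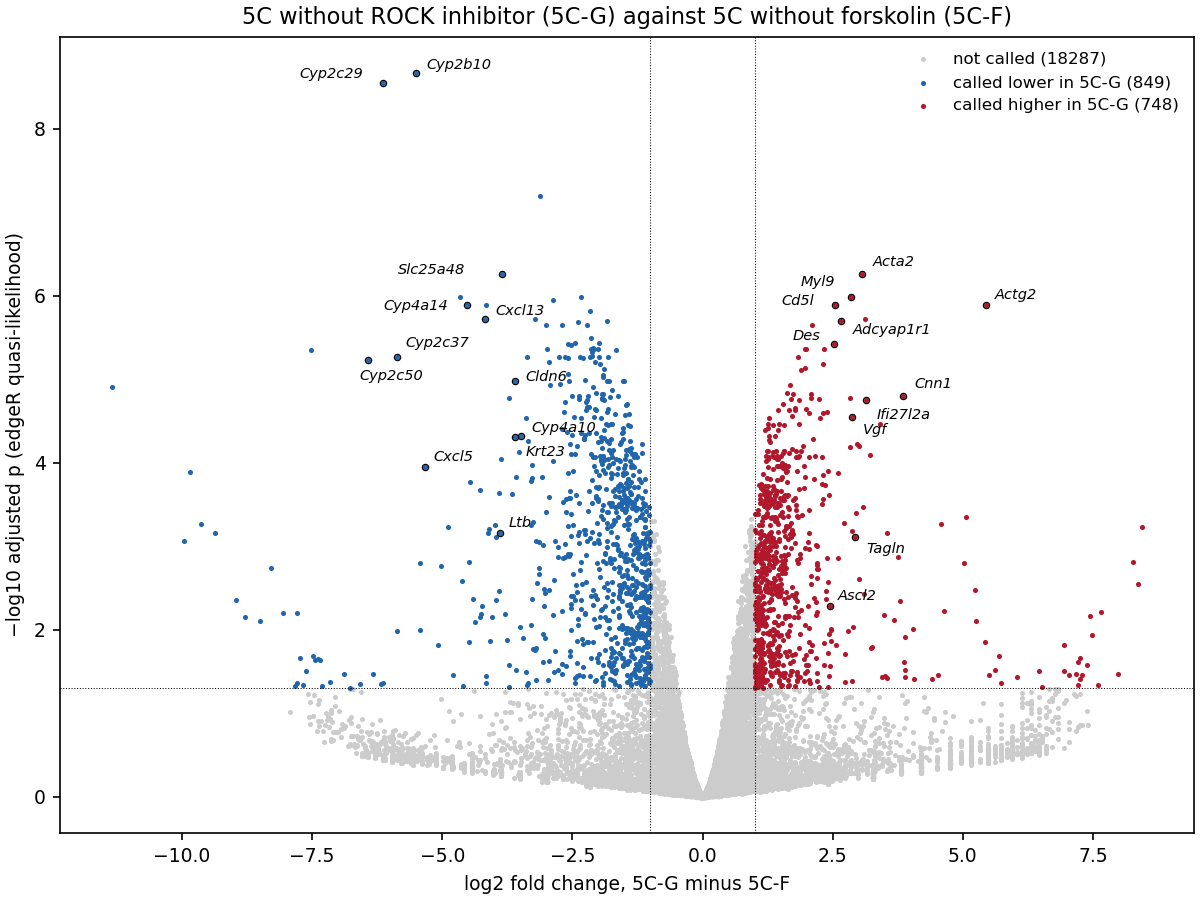
Log2 difference of each tested gene, 5C-G minus 5C-F (horizontal axis), against the negative log10 of its adjusted p (vertical axis), with called genes coloured by direction. The labelled genes are among those with the strongest differences in each direction; smooth muscle genes stand at the right and cytochrome P450 genes at the left.

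Genes of the contractile program driven by SRF and MRTF were higher after ROCK inhibitor removal. Of the 18 listed members 11 were higher in 5C-G and 0 lower, with a median log2 difference of 1.60 beside 0.05 over all tested genes. With 1 library left out, 10 to 12 members were called. Against 5C the list's median was 1.04 in 5C-G and -0.38 in 5C-F. The summed FPKM of the list was 1903.5 and 2365.8 in 5C-G, 589.1 and 687.1 in 5C-F, 894.0 and 872.2 in 5C, and 1064.2 and 1094.6 in DMSO, so the 5C-G libraries were the highest and the 5C-F libraries the lowest of the 4 groups.

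Acta2 (ENSMUSG00000035783, chr19:34217737-34232990, minus strand, GRCm39) encodes smooth muscle actin, the usual mark of myofibroblasts. Its FPKM was 746 and 991 in 5C-G, 110 and 105 in 5C-F, 233 and 215 in 5C, and 255 and 300 in DMSO. The groups were far apart, with 5C and DMSO between them, and the log2 difference was 3.06 ± 0.22 (SE, n = 2 per group; edgeR adjusted p = 5.5e-07). Actg2, another smooth muscle actin, had 24.7 and 36.6 FPKM in 5C-G against 0.663 and 0.795 in 5C-F, a log2 difference of 5.45 ± 0.44 (adjusted p = 1.3e-06). It stood at 2.20 and 3.58 in 5C and 10.8 and 14.1 in DMSO. For Actg2 the difference was made on both sides of 5C, since 5C-G was 3.56 log2 units above it (adjusted p = 9.1e-06) and 5C-F 1.89 below it (adjusted p = 0.0089).

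Cnn1, which encodes the actin-binding protein calponin, had 10.95 and 15.4 FPKM in 5C-G, 0.566 and 1.33 in 5C-F and 2.45 and 3.37 in 5C (log2 difference 3.86 ± 0.43, adjusted p = 1.6e-05). Myl9, the regulatory myosin light chain on which ROCK acts, had 130 and 187 FPKM in 5C-G, 20.8 and 25.0 in 5C-F and 30.9 and 30.002 in 5C (2.85 ± 0.22, adjusted p = 1.0e-06). Tagln (transgelin, 2.94 ± 0.51, adjusted p = 0.00077) and Myh11 (smooth muscle myosin heavy chain, 2.60 ± 0.37, adjusted p = 0.00013) followed. For Cnn1 and Myl9 every 5C-G library lay above every 5C, 5C-F and DMSO library. Myh11 was different in this respect, with 3.88 and 3.74 FPKM in 5C-G below the 4.63 and 4.96 of DMSO.

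Not every member of the list passed. Non-muscle myosin Myh9 had 73.7 and 77.0 FPKM in 5C-G and 49.98 and 61.6 in 5C-F (log2 difference 0.48 ± 0.21, adjusted p = 0.17). The focal adhesion gene Zyx (0.82 ± 0.20, adjusted p = 0.011) and the actin crosslinker Flna (0.88 ± 0.16, adjusted p = 0.0012) passed the p threshold but not the size threshold. Zyx was called without 5C-G A (1.08) and Flna without 5C-F B (1.04).

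**Figure D2:**
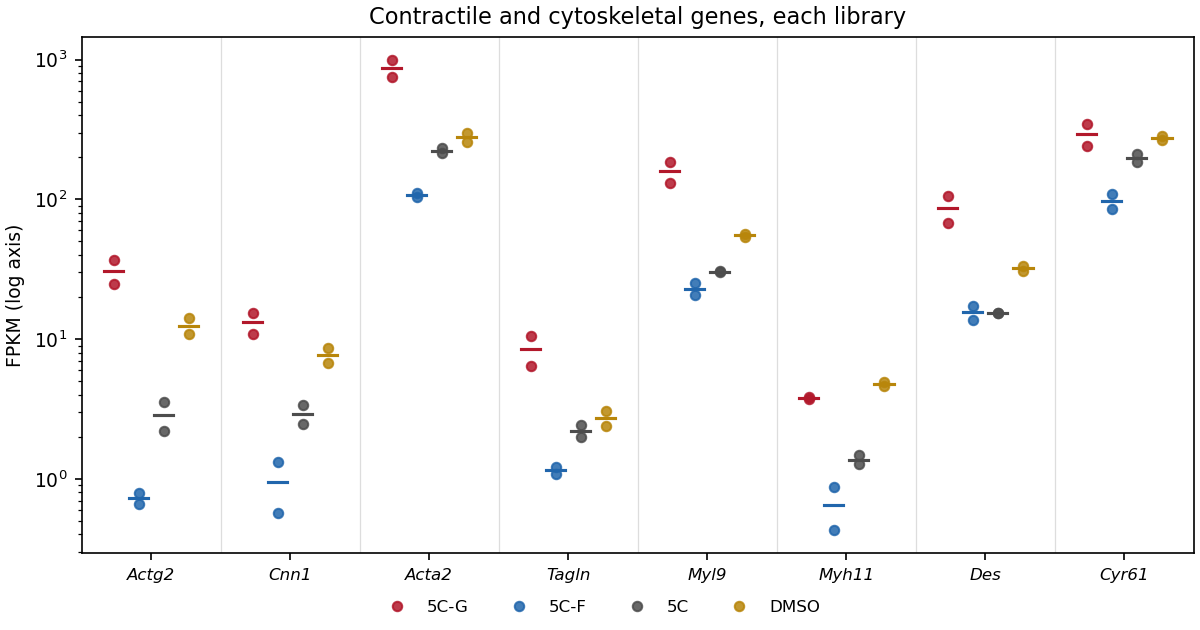
FPKM on a log axis of 8 cytoskeletal and matricellular genes in the libraries of DMSO, 5C, 5C-G and 5C-F, with points for libraries and a bar for each group mean. The 5C-G points lie above the 5C-F points for all 8 genes, as for Acta2 with 746 and 991 against 110 and 105.

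Promoter windows from RefSeq, 250 bases before to 50 after a gene's start, were found for 15 of the 18 contractile genes and 13411 of all tested genes. 4 letter patterns were searched on both strands. They were the cAMP response element TGACGTCA bound by CREB, its core TGACG (which every full element contains), the CArG box bound by SRF, and the TEAD site GGAATG. For the CArG box the letters were CC, then 6 letters of A or T, then GG. Stretches that differ from this by a letter were not counted, so a gene without a match may hold a near form. The CArG box was in the windows of 4 of the 15 contractile genes (Cnn2, Myl9, Vcl and Srf), against 1.60% of all tested genes with a window. It was found for 2.33% of the genes higher in 5C-G and 1.58% of those lower. The full cAMP element was in 0 of the 15, in 1.43% of the higher, 2.06% of the lower and 3.15% of all genes, and the core in 5 of the 15, 23.8%, 22.0% and 31.7%. The TEAD site was in 6 of the 15, in 15.6% of the higher, 20.1% of the lower and 15.2% of all genes. A gene was counted when any of its windows held the letters (Cald1 has 2 windows), and these matches are given as a description.

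Below are the 250 bases before the RefSeq start of 4 contractile genes, read 5′ to 3′ on the gene's strand, chosen because they hold the searched letters. The sequences come from the RefSeq table of build GRCm38.p6, and the coordinates from an exact match in GRCm39. Capitals mark the CArG box in Myl9 (chr2:156617134-156617383, plus strand), Cnn2 (chr10:79824184-79824433, plus) and Srf (chr17:46867089-46867338, minus), and the TEAD site in Acta2 (chr19:34232774-34233023, minus). Near forms of the CArG letters stay in lower case, such as ccctatatgg and ccttgtttgg in Acta2.
Myl9: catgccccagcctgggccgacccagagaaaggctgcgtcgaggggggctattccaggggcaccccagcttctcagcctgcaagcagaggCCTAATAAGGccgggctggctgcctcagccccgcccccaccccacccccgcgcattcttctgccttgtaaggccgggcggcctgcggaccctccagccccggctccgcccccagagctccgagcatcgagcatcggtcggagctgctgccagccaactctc
Cnn2: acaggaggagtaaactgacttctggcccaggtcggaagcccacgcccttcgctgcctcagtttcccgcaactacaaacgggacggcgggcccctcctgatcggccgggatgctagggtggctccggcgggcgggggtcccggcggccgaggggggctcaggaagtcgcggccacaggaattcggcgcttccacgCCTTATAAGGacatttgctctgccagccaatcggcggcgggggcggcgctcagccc
Srf: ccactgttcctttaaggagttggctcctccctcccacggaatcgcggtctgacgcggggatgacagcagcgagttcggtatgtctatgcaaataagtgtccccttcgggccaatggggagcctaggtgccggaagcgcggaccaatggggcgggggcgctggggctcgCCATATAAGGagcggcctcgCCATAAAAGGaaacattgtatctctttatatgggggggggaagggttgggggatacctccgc
Acta2: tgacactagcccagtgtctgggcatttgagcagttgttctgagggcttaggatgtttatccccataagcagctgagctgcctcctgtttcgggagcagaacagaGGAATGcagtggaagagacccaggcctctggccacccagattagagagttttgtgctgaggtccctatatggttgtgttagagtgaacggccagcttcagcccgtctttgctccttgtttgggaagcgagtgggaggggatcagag

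The capitals begin 161 bases before the start in Myl9, 56 in Cnn2, 82 and 62 in Srf, and 146 in Acta2. Cnn2, a calponin of non-muscle cells, had 180 and 263 FPKM in 5C-G and 57.5 and 70.6 in 5C-F (log2 difference 1.85 ± 0.22, adjusted p = 3.4e-05). Srf itself had 20.7 and 19.0 FPKM in 5C-G and 10.7 and 10.7 in 5C-F (0.93 ± 0.17, adjusted p = 0.0011), short of the size threshold. Vcl, the adhesion protein vinculin, also with a CArG box, overlapped between the groups with 26.1 and 7.92 FPKM in 5C-G and 9.04 and 9.51 in 5C-F (0.86 ± 0.49, adjusted p = 0.31). Cnn2, Srf and Vcl were named for their promoters, after their values were seen.

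Of 15 YAP and TEAD targets 1 was higher in 5C-G and 0 lower (median 0.39), where 3.76% of all tested genes were called higher. Without 5C-G B 3 were higher (median 0.66), and without 5C-G A 1 was higher and 1 lower (median 0.24). Cyr61 (Ccn1), a secreted matricellular protein, was the called member, with 346 and 239 FPKM in 5C-G, 84.7 and 110 in 5C-F and 213 and 184 in 5C (log2 difference 1.62 ± 0.18, adjusted p = 1.5e-05). The best-known target Ctgf (Ccn2) had 333 and 222 FPKM in 5C-G and 189 and 187 in 5C-F (0.58 ± 0.17, adjusted p = 0.031), and the receptor kinase Axl 137 and 117 against 65.7 and 80.3 (0.83 ± 0.16, adjusted p = 0.0014). Both passed the p but not the size threshold.

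Of 18 genes of the ROCK machinery itself 2 were called higher in 5C-G, where 3.76% of all tested genes were, and 0 lower, with a median log2 difference of 0.16 (-0.024 without 5C-G A). Rock1 transcript, one of the 2 targets of the removed inhibitor, had 3.61 and 1.55 FPKM in 5C-G and 3.88 and 3.02 in 5C-F (log2 difference -0.42 ± 0.25, adjusted p = 0.33), and Rock2 had 16.3 and 8.32 against 12.6 and 9.99 (0.12 ± 0.23, adjusted p = 0.80). The 5C-G libraries differed from each other in both genes, and without 5C-G A Rock1 was called lower in 5C-G (-1.03). The called members were Limk1, a ROCK substrate that inactivates cofilin (1.45 ± 0.38, adjusted p = 0.018), and the small GTPase Rnd1 (1.04 ± 0.21, adjusted p = 0.0024). Neither call held without 5C-G B (log2 differences 1.23 and 0.75) or without 5C-F A (0.87 and 0.91). Rnd1 lay just past the fold threshold, and its call was also lost in most other alternatives, among them scaling by total counts, no filter on low counts and both limma fits. Cofilin (Cfl1) and Rhoc were above 5C in both removals, by 1.46 and 1.70 log2 units in 5C-G (adjusted p = 4.6e-05 and 5.4e-05) and by 0.84 and 1.09 in 5C-F (adjusted p = 0.011 and 0.0065), and neither was called between the removals.

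Macrophage genes were also higher after ROCK inhibitor removal. Of 21 listed markers of Kupffer cells and macrophages 13 were higher in 5C-G and 0 lower, with a median log2 difference of 1.59. With 1 library left out, 12 to 14 were higher. Both removals stood above 5C, with list medians of 2.56 in 5C-G and 1.54 in 5C-F. The summed FPKM of the list was 762.8 and 871.4 in 5C, 2223.0 and 2552.9 in 5C-F, 6410.5 and 8549.1 in 5C-G and 6343.6 and 6434.5 in DMSO, so that 5C-G was near or above DMSO and 5C-F between 5C and DMSO.

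Cd5l, a secreted protein of tissue macrophages, had 115 and 158 FPKM in 5C-G, 22.3 and 26.2 in 5C-F, 6.03 and 7.13 in 5C and 45.8 and 50.6 in DMSO. Its log2 difference between the removals was 2.55 ± 0.21 (adjusted p = 1.3e-06). The complement gene C1qa had 1160 and 1793 FPKM in 5C-G, 190 and 387 in 5C-F, 58.7 and 58.2 in 5C and 825 and 772 in DMSO (2.43 ± 0.37, adjusted p = 0.00024). In both genes the order was 5C, 5C-F, DMSO, 5C-G with no overlap between neighbours. The partner subunits C1qc and C1qb followed at 1.83 ± 0.25 and 1.77 ± 0.27 (adjusted p = 8.5e-05 and 0.00026). The scavenger receptor gene Marco differed by 2.08 ± 0.42 (adjusted p = 0.0028), a call lost without 5C-F A (1.52, adjusted p = 0.051). Adgre1, which encodes the macrophage surface protein F4/80, had 56.2 and 53.3 FPKM in 5C-G, 23.0 and 22.9 in 5C-F, 11.5 and 12.6 in 5C and 80.6 and 74.5 in DMSO (1.29 ± 0.16, adjusted p = 5.6e-05). Gpnmb, a glycoprotein of lipid-loaded macrophages, differed by 1.68 ± 0.18 (adjusted p = 1.2e-05). Adgre1 differs from Cd5l and C1qa in that DMSO was above 5C-G.

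The remaining 8 markers were not called. The complement receptor gene Vsig4 had 116 and 138 FPKM in 5C-G and 105 and 87.3 in 5C-F (0.44 ± 0.19, adjusted p = 0.16), both above its 38.2 and 37.4 in 5C. Csf1r, the receptor for the macrophage growth factor, was just under the size threshold (0.94 ± 0.21, adjusted p = 0.0049) and was called without 5C-G A (1.22). In 2 markers, both named after their values were seen, the 5C-G libraries lay below the 5C-F libraries. Cx3cr1, a chemokine receptor of monocytes and macrophages, was at 0.0966 and 0.0608 FPKM in 5C-G and 0.659 and 0.127 in 5C-F (-2.32 ± 0.87, adjusted p = 0.10), and was called lower without 5C-F B (-3.08, adjusted p = 0.024). Clec4f, a defining Kupffer cell lectin, was at 0.252 and 0.266 against 0.784 and 0.289 (-1.03 ± 1.17, adjusted p = 0.65). Ccr2, the chemokine receptor of recruited monocytes, was at 0 to 0.0092 FPKM in the 4 libraries. Whether macrophages in the cultures account for part of the differences in other genes was not tested.

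**Figure D3:**
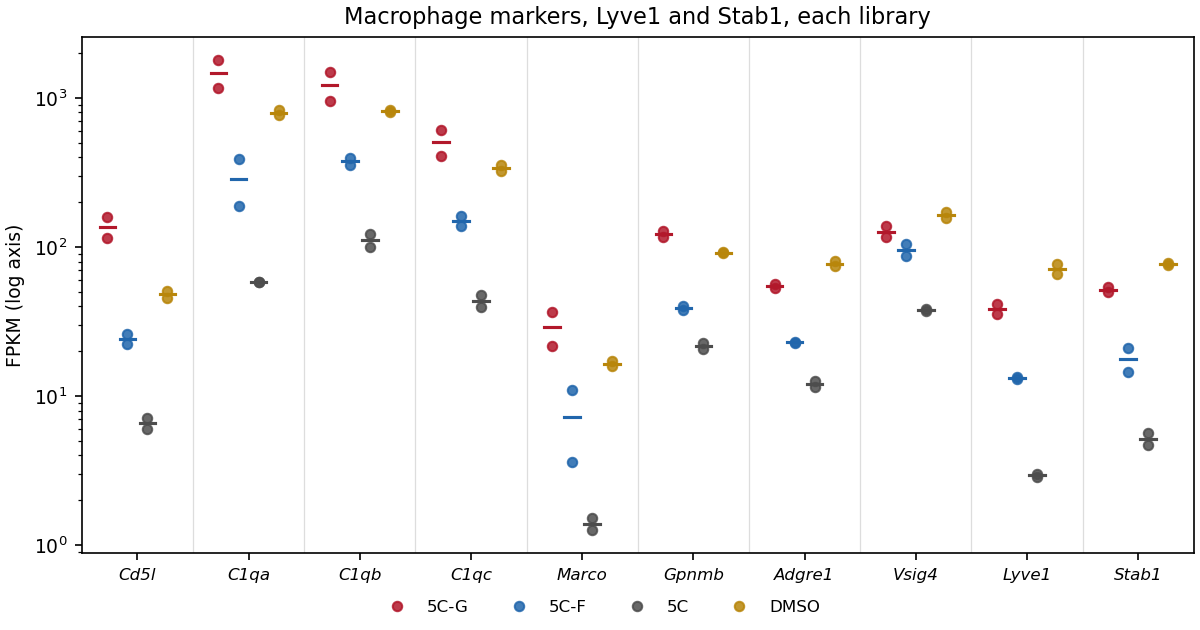
FPKM on a log axis of 10 macrophage and scavenger receptor genes in the libraries of DMSO, 5C, 5C-G and 5C-F, with points for libraries and a bar for each group mean. 5C is lowest for all 10 genes, and 5C-F lies between 5C and 5C-G, as for C1qa with 58.7 and 58.2, 190 and 387, and 1160 and 1793.

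The NADPH oxidase genes went both ways. All 6 listed subunits of the phagocyte enzyme were higher in 5C-G, led by Cyba, a membrane subunit, with 331 and 477 FPKM in 5C-G, 135 and 145 in 5C-F and 81.8 and 88.7 in 5C (1.58 ± 0.24, adjusted p = 0.00024), while the seventh gene, Nox4, was lower. The median of the 7 was 1.30. The number higher fell to 3 without 5C-G B, and the call of the cytosolic subunit Ncf4 (1.41 ± 0.29, adjusted p = 0.0030) was among those lost (0.94, adjusted p = 0.066). Nox4, an oxidase of hepatocytes and fibroblasts, had 1.32 and 0.901 FPKM in 5C-G, 5.51 and 3.76 in 5C-F, 6.27 and 4.61 in 5C and 5.49 and 5.03 in DMSO (-2.05 ± 0.25, adjusted p = 4.4e-05). Only 5C-G stood apart among these 4 groups.

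Inflammatory cytokine genes went both ways, 4 of 20 higher and 5 lower in 5C-G with a median of 0.02. Without 5C-G B 2 were higher, and the median ran from -0.15 without 5C-F A to 0.69 without 5C-F B. The neutrophil-attracting chemokine Cxcl5 had 0.400 and 0 FPKM in 5C-G, 7.71 and 7.87 in 5C-F, 4.37 and 2.53 in 5C and 0.543 and 0.861 in DMSO (-5.32 ± 0.74, adjusted p = 0.00011). Cxcl1, of the same family, had 5.24 and 3.40 FPKM in 5C-G against 14.4 and 23.3 in 5C-F (-2.10 ± 0.28, adjusted p = 8.5e-05), and Il1rn, the natural antagonist of interleukin 1, 0.455 and 0.420 against 2.65 and 2.09 (-2.41 ± 0.31, adjusted p = 6.3e-05). Il6 went the other way at low levels, 0.781 and 0.541 FPKM against 0.0425 and 0.137 (2.88 ± 0.69, adjusted p = 0.0094), and lost its call without 5C-F A (2.32, adjusted p = 0.11). Of 14 interferon stimulated genes 2 were higher (3.76% of all tested genes were) and 0 lower (median 0.19, and -0.18 without 5C-G B), the regulator Irf7 (1.95 ± 0.29, adjusted p = 0.00020) and Isg15 (1.65 ± 0.41, adjusted p = 0.012). Without 5C-G B Irf7 alone was called, with Isg15 at 0.82 (adjusted p = 0.29), and Isg15 was lost without 5C-F A too (1.21, adjusted p = 0.18). Of 8 genes for MHC class II presentation 0 were higher and 1 lower (median 0.27), where 4.27% of all tested genes were called lower. It was the invariant chain gene Cd74 with 1.31 and 1.61 FPKM in 5C-G and 8.61 and 8.63 in 5C-F (-2.51 ± 0.31, adjusted p = 4.6e-05), and 1 was higher without 5C-G A.

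Hepatocyte genes lay on the other side. Of 16 listed hepatocyte transcription factors 13 were lower in 5C-G than in 5C-F and 0 higher, with a median log2 difference of -1.91. Without any 1 library 11 or 12 were lower. Against 5C the medians were -1.18 in 5C-G and 0.67 in 5C-F, with 9 factors lower and 0 higher in 5C-G, and 2 higher and 0 lower in 5C-F. None of the 16 was thus called lower than 5C after forskolin removal, where 2.15% of all tested genes were.

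Foxa1, a pioneer factor of liver development, had 1.13 and 0.494 FPKM in 5C-G, 6.26 and 5.66 in 5C-F, 3.95 and 2.74 in 5C and 1.98 and 2.20 in DMSO (log2 difference -2.88 ± 0.39, adjusted p = 9.5e-05). For Foxa1 5C-F was the highest and 5C-G the lowest group. Prox1, needed for hepatocyte migration in the embryo (-2.38 ± 0.26, adjusted p = 1.6e-05), and Nr5a2, a regulator of bile acid genes (-2.25 ± 0.24, adjusted p = 1.0e-05), differed alike. Hnf4a, the central regulator of the hepatocyte state, had 9.62 and 8.16 FPKM in 5C-G, 24.1 and 31.7 in 5C-F, 21.5 and 18.8 in 5C and 19.8 and 19.8 in DMSO (-1.61 ± 0.18, adjusted p = 1.6e-05). Only 5C-G was low for Hnf4a. Foxa2 differed by -1.64 ± 0.28 (adjusted p = 0.00077), and Onecut1, the largest difference in the list, rested on 0.0151 and 0.0266 FPKM against 0.1005 and 0.347 (-3.29 ± 0.79, adjusted p = 0.0089) and was lost without 5C-G A (-2.89) and without 5C-F B (-2.20). Cebpa did not pass, at 30.8 and 27.9 FPKM against 36.6 and 34.8 (-0.25 ± 0.19, adjusted p = 0.45), and both removals were above its 19.8 and 19.5 in 5C.

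Of 12 hepatocyte markers 9 were lower and 1 higher in 5C-G (median -1.33), with 7 to 9 lower when 1 library was left out. The summed FPKM of the markers was 9762.8 and 11331.4 in 5C-G, 28937.7 and 23886.6 in 5C-F, 16457.9 and 16581.4 in 5C and 17374.4 and 15959.6 in DMSO. Albumin (Alb) had 4136 and 4482 FPKM in 5C-G, 18255 and 13341 in 5C-F, 9437 and 9425 in 5C and 9711 and 8604 in DMSO (-1.84 ± 0.19, adjusted p = 1.0e-05). The 5C and DMSO libraries overlapped, with 5C-F above both groups and 5C-G below both. Cps1, which commits ammonia to the urea cycle, had 16.5 and 9.08 FPKM in 5C-G and 94.0 and 61.8 in 5C-F (-2.60 ± 0.32, adjusted p = 4.2e-05), and Tat, a glucocorticoid-responsive aminotransferase, 15.8 and 10.7 against 53.7 and 61.3 (-2.10 ± 0.20, adjusted p = 4.2e-06). The thyroid hormone carrier Ttr differed by -1.47 ± 0.19 (adjusted p = 7.1e-05). The asialoglycoprotein receptor gene Asgr1 had 19.5 and 17.8 FPKM against 23.5 and 22.5 (-0.27 ± 0.20, adjusted p = 0.45).

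Among named genes of at least 5 FPKM in the higher group, the largest differences were in drug metabolism. Of 22 listed genes 14 were lower in 5C-G and 0 higher (median -1.58), with 13 to 15 lower when 1 library was left out. Their summed FPKM was 536.9 and 591.2 in 5C-G, 1844.5 and 1647.0 in 5C-F, 1449.0 and 1359.1 in 5C and 585.9 and 555.1 in DMSO. The sums in 5C-G were thus close to those in DMSO and the sums in 5C-F above those in 5C.

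Cyp2c29 (chr19:39257849-39319157, plus strand, GRCm39), a cytochrome P450 of the CAR-regulated 2c family, had 4.44 and 4.82 FPKM in 5C-G, 395 and 270 in 5C-F, 170 and 165 in 5C and 1.67 and 1.14 in DMSO. The log2 difference was -6.13 ± 0.30 (adjusted p = 2.8e-09), with 5C-G 5.03 below 5C (adjusted p = 1.5e-08) and 5C-F 1.10 above it (adjusted p = 0.010). Cyp2b10, the usual reporter of the nuclear receptor CAR, had 3.58 and 3.64 FPKM in 5C-G, 194 and 139 in 5C-F, 88.3 and 78.0 in 5C and 9.90 and 8.70 in DMSO (-5.50 ± 0.26, adjusted p = 2.1e-09). For Cyp2b10 the 5C-G libraries were below DMSO as well. Cyp2c50 (-6.43 ± 0.64, adjusted p = 5.8e-06) and Cyp2c37 (-5.87 ± 0.58, adjusted p = 5.4e-06) differed alike. The 2b, 2c and 4a enzymes are encoded by clusters of near-identical copies between which reads can be split, so the values of single copies are uncertain.

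Cyp3a11, the main drug-oxidising P450 and a target of the receptor PXR, did not follow them. Its FPKM was 42.4 and 41.5 in 5C-G, 42.2 and 21.3 in 5C-F, 173 and 191 in 5C and 0.708 and 0.542 in DMSO. Both removals lowered it from 5C, by 1.98 log2 units in 5C-G (adjusted p = 4.9e-05) and by 2.40 in 5C-F (adjusted p = 8.6e-05), and the difference between them was 0.42 ± 0.25 (adjusted p = 0.33). The 5C-F libraries differed from each other, and without 5C-F A the gene was called higher in 5C-G (1.05, adjusted p = 0.0088). The glutathione transferase Gstm1 had 208 and 260 FPKM in 5C-G and 435 and 506 in 5C-F, at the edge of the size threshold (-0.96 ± 0.22, adjusted p = 0.0060), and was called lower in most alternatives, among them without 5C-G B (-1.23) and without 5C-F A (-1.02).

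**Figure D4:**
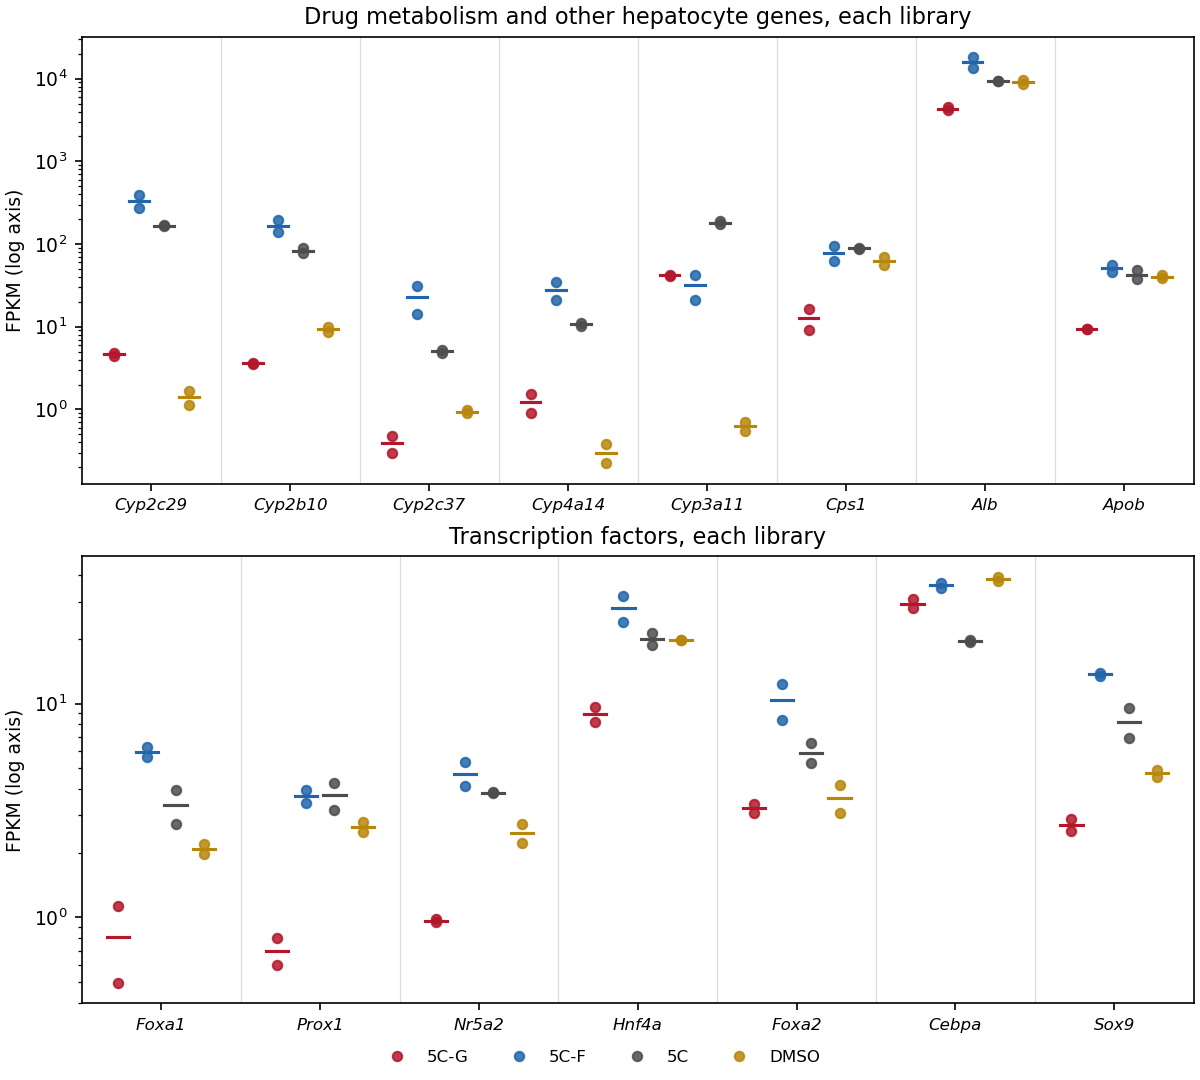
FPKM on a log axis of 8 hepatocyte enzyme and plasma protein genes and 7 transcription factors in the libraries of DMSO, 5C, 5C-G and 5C-F, with points for libraries and a bar for each group mean. 5C-F lies above 5C-G for most genes, as for Alb with 18255 and 13341 against 4136 and 4482, while Cyp3a11 and Cebpa are close in both.

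Of 23 plasma protein genes 15 were lower and 1 higher in 5C-G (median -1.16), and the number lower ran from 11 to 19 when 1 library was left out. Apob, the protein of very low density lipoprotein, had 9.41 and 9.39 FPKM in 5C-G, 55.5 and 45.7 in 5C-F, 47.9 and 37.5 in 5C and 39.0 and 41.9 in DMSO (-2.40 ± 0.21, adjusted p = 2.0e-06). Antithrombin (Serpinc1) followed at -1.92 ± 0.20 (adjusted p = 9.4e-06). Apoe, which macrophages also make and which was named after its values were seen, was the higher one, with 4155 and 6133 FPKM in 5C-G, 1799 and 3470 in 5C-F, 710 and 816 in 5C and 3918 and 3752 in DMSO (1.03 ± 0.32, adjusted p = 0.042). That call was lost in most alternatives, among them without 5C-G B (0.61, adjusted p = 0.37) and without 5C-F A (0.66, adjusted p = 0.40). Its level above 5C was called in both removals (2.91 in 5C-G, adjusted p = 1.5e-05, and 1.87 in 5C-F, adjusted p = 0.0024).

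Of 17 bile acid and transport genes 8 were lower in 5C-G and 0 higher (median -1.33). They included uptake carriers of the sinusoidal membrane, Slc10a1 (NTCP) with 0.368 and 0.373 FPKM in 5C-G, 4.66 and 2.26 in 5C-F and 3.21 and 3.14 in 5C (-3.19 ± 0.56, adjusted p = 0.00086), and Slco1b2 (-2.26 ± 0.39, adjusted p = 0.00071). Export pumps were lower too, Abcc2 of the canalicular membrane with 3.40 and 2.54 FPKM against 12.1 and 11.8 (-1.99 ± 0.18, adjusted p = 3.6e-06), Abcc4 (-2.002 ± 0.26, adjusted p = 5.6e-05) and the phospholipid transporter Abcb4 (-1.80 ± 0.19, adjusted p = 1.0e-05).

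Among 13 urea cycle and amino acid genes 6 were lower and 1 higher (median -1.13, and -0.48 with limma on log2(FPKM + 1)). Their summed FPKM did not follow the median, at 640.7 and 640.5 in 5C-G, 609.1 and 567.1 in 5C-F, 577.9 and 532.0 in 5C and 773.3 and 740.4 in DMSO. Besides Cps1 the lower genes included the enzyme that opens tryptophan breakdown, Tdo2 with 3.70 and 2.24 FPKM in 5C-G and 16.0 and 12.3 in 5C-F (-2.24 ± 0.25, adjusted p = 1.9e-05). Of 16 genes for fatty acid oxidation and other targets of the receptor PPARα 5 were lower and 0 higher (median -0.56). The omega-hydroxylase Cyp4a14 had 1.53 and 0.894 FPKM in 5C-G, 35.1 and 20.9 in 5C-F, 11.2 and 10.1 in 5C and 0.378 and 0.222 in DMSO (-4.53 ± 0.35, adjusted p = 1.3e-06). Cyp4a10 (-3.48 ± 0.44, adjusted p = 4.8e-05) and the peroxisomal enzyme Ehhadh (-1.60 ± 0.31, adjusted p = 0.0018) followed.

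Of 14 lipogenesis genes 6 were lower and 0 higher (median -0.98), among them the triglyceride enzyme Dgat2 with 8.63 and 7.33 FPKM in 5C-G and 23.9 and 25.0 in 5C-F (-1.58 ± 0.20, adjusted p = 6.0e-05) and Thrsp, a regulator of lipogenesis (-1.86 ± 0.35, adjusted p = 0.0016). Of 16 sterol synthesis genes 2 were lower (4.27% of all tested genes were) and 0 higher (median -0.46). Without 5C-G B 1 was lower.

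Forskolin acts on the cyclic AMP pathway. Of 26 genes for its cyclases, kinase subunits, phosphodiesterases and Epac proteins 3 were higher and 2 lower in 5C-G (median 0.12, and -0.12 without 5C-G A), where 8.03% of all tested genes were called, and 1 was lower without 5C-G B or without 5C-F A. The 2 Epac genes went opposite ways. Rapgef3 (Epac1) had 10.2 and 7.58 FPKM in 5C-G, 3.30 and 4.32 in 5C-F and 6.73 and 6.03 in 5C (1.25 ± 0.19, adjusted p = 0.00027), while Rapgef4 (Epac2) had 0.768 and 0.521, 4.04 and 3.22, and 3.42 and 3.11 in the same groups (-2.48 ± 0.29, adjusted p = 2.8e-05). The cyclase Adcy7 was higher at 2.65 and 1.93 FPKM against 0.637 and 1.02 (1.498 ± 0.29, adjusted p = 0.0017). Of the phosphodiesterases, which break cyclic AMP down, Pde1a was higher (1.21 ± 0.25, adjusted p = 0.0035) and Pde3b lower (-1.11 ± 0.25, adjusted p = 0.0064). Both phosphodiesterase calls were lost without 5C-G B (0.90 and -0.97), Pde1a also without 5C-F B (0.91) and Pde3b without 5C-F A (-0.65). The cyclase Adcy6 varied most within 5C-G, at 7.90 and 2.91 FPKM against 2.96 and 4.60 (0.52 ± 0.30, adjusted p = 0.31), and was called higher without 5C-G B (1.01).

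CREB target genes are among those that cyclic AMP activates. Of 17 members 1 was higher and 3 lower in 5C-G, where 3.76% of all tested genes were called higher and 4.27% lower. Of the 17 log2 differences 13 were above 0, with a median of 0.24 beside 0.05 over all tested genes. With 1 library left out the median ran from 0.16 to 0.40. Nr4a1, an immediate target, had 2.74 and 2.22 FPKM in 5C-G, 0.780 and 2.58 in 5C-F, 3.82 and 1.95 in 5C and 3.34 and 3.46 in DMSO (0.61 ± 0.39, adjusted p = 0.37). It was called higher without 5C-F B (1.65). Ppargc1a, the coactivator of fasting metabolism, was lower at 0.207 and 0.0581 FPKM against 0.787 and 0.617 (-2.42 ± 0.51, adjusted p = 0.0035), as was the G-protein regulator Rgs2 (-1.25 ± 0.22, adjusted p = 0.00086), which was lost without 5C-G B (-0.95). The growth factor gene Areg (ENSMUSG00000029378, listed in the table under the symbol Mcub) was at 2.12 and 2.39 FPKM against 7.97 and 6.66 (-1.66 ± 0.48, adjusted p = 0.031), a call lost when any 1 of the 4 libraries was left out (adjusted p 0.053 to 0.18). The phosphodiesterase Pde10a was the higher member (1.77 ± 0.39, adjusted p = 0.0054), lost without 5C-F A (1.48, adjusted p = 0.078).

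Of 12 genes of gluconeogenesis and fasting 3 were lower in 5C-G and 0 higher (median -0.85). Igfbp1, a fasting-induced binding protein, had 703 and 533 FPKM in 5C-G, 2274 and 2016 in 5C-F and 1157 and 992 in 5C (-1.77 ± 0.20, adjusted p = 1.6e-05). Pyruvate carboxylase (Pcx) was at 13.2 and 13.8 against 25.8 and 30.2 FPKM (-1.01 ± 0.17, adjusted p = 0.00067), lost without 5C-G A (-0.89) and without 5C-F B (-0.94), and Tat was the third. Pck1, the classical CREB target of liver, was low throughout, at 1.83 and 1.16 FPKM in 5C-G, 2.37 and 2.67 in 5C-F and 3.50 and 2.82 in 5C (-0.74 ± 0.29, adjusted p = 0.12).

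Markers of the other cell types that a liver preparation can hold were read beside these results. Stellate cell and fibroblast markers went both ways, 2 of 13 higher and 4 lower in 5C-G (median 0.23, and -0.12 without 5C-F A), with a summed FPKM of 619.8 and 626.4 in 5C-G and 636.2 and 520.4 in 5C-F. The intermediate filament Des, which smooth muscle also expresses, had 67.3 and 105 FPKM in 5C-G, 13.8 and 17.3 in 5C-F and 15.5 and 15.4 in 5C (2.53 ± 0.24, adjusted p = 3.8e-06). Thy1, a surface protein of portal fibroblasts, was at 13.1 and 13.5 against 2.87 and 3.62 FPKM (2.08 ± 0.23, adjusted p = 1.7e-05). The 4 lower markers were Rgs5, Lrat, Reln and Pdgfra. Rgs5, a G-protein regulator of pericytes, had 0.198 and 0.132 FPKM in 5C-G, 4.57 and 3.86 in 5C-F, 3.27 and 2.28 in 5C and 0.409 and 0.226 in DMSO (-4.65 ± 0.36, adjusted p = 1.0e-06). The retinoid storage enzyme Lrat was at 0.238 and 0.0614 against 1.65 and 0.956 FPKM (-3.14 ± 0.62, adjusted p = 0.0021), and Reln differed by -2.21 ± 0.25 (adjusted p = 2.2e-05). Pdgfra, a PDGF receptor of fibroblasts, differed by -1.25 ± 0.22 (adjusted p = 0.00085; -0.91 without 5C-G B, not called). Dcn, an abundant fibroblast proteoglycan, was at 213 and 165 against 336 and 262 FPKM (-0.64 ± 0.18, adjusted p = 0.029). The contractile genes were thus higher in the same libraries as Des and Thy1, in which Pdgfra was lower, and the part of stellate cells and fibroblasts in the result was not tested.

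Cholangiocyte markers were lower in 5C-G, 5 of 9 with 0 higher (median -2.29, and -1.36 without 5C-G B), although their summed FPKM, carried by Spp1, was 2439.5 and 1982.8 in 5C-G and 3436.7 and 3181.0 in 5C-F. Without 5C-F B 1 of the 9 was higher. Sox9, the factor of bile duct and ductal hepatocyte cells, had 2.54 and 2.88 FPKM in 5C-G, 14.0 and 13.4 in 5C-F, 9.54 and 6.91 in 5C and 4.56 and 4.90 in DMSO (-2.30 ± 0.23, adjusted p = 5.6e-06). Krt23 (-3.60 ± 0.45, adjusted p = 4.9e-05) differed more at a lower level. Epcam was uneven between libraries, at 6.10 and 0.249 FPKM against 9.73 and 20.6 (-2.29 ± 0.69, adjusted p = 0.036), and its call was lost without 5C-F A (-2.71, adjusted p = 0.054) or 5C-F B (-1.71, adjusted p = 0.19), by DESeq2 (adjusted p = 0.12), by both limma fits, with total counts only and with only the 4 libraries in the fit. The progenitor marker Prom1 was lower (-1.79 ± 0.34, adjusted p = 0.0015), while osteopontin (Spp1) missed the size threshold (-0.57 ± 0.15, adjusted p = 0.020).

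Of 10 liver endothelial markers 2 were higher and 1 lower in 5C-G. Their median of 1.12 rests on genes at 0 in 1 group and was 0.17 with those at the bound that 3 counts per library allow. Their summed FPKM was 93.0 and 100.1 in 5C-G, 33.9 and 41.3 in 5C-F, 20.1 and 20.3 in 5C and 155.2 and 168.9 in DMSO. The higher genes were the scavenger receptors Stab1, at 50.1 and 53.7 against 14.6 and 20.9 FPKM (1.60 ± 0.23, adjusted p = 0.00013), and Lyve1, at 35.4 and 41.8 against 13.4 and 12.9 (1.59 ± 0.22, adjusted p = 0.00012), both of which liver macrophages can also express. The defining endothelial genes Cdh5, Pecam1 and Tie1 had 0 FPKM in both 5C-F libraries and at most 0.038 in 5C-G. Tek, an endothelial receptor, had 0 counts in both 5C-G libraries and 18 and 29 in 5C-F (adjusted p = 0.023), a call lost without 5C-G A, without 5C-G B and without 5C-F B. Lymphocyte and neutrophil markers were near absent, with a summed FPKM of 4.0 and 5.0 in 5C-G and 1.9 and 1.8 in 5C-F. Of the 5 tested 1 was higher and 0 lower (median 0.62, and 0.00 with the gene at 0 set to its bound), the neutrophil gene S100a8 (2.05 ± 0.63, adjusted p = 0.040), which was lost without 5C-G B (1.33), 5C-F A (2.15) or 5C-F B (1.95).

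Epithelial junction and keratin genes followed the hepatocyte genes, 8 of 15 lower in 5C-G and 0 higher (median -1.04; 7 to 9 with 1 library left out). Their summed FPKM was 701 and 871.4 in 5C-G, 1759.8 and 2029.1 in 5C-F, 740.5 and 722.0 in 5C and 579.1 and 574.6 in DMSO, so 5C-F alone was high. Krt18, a keratin of simple epithelium, had 254 and 352 FPKM in 5C-G, 811 and 953 in 5C-F, 278 and 260 in 5C and 207 and 205 in DMSO (-1.49 ± 0.20, adjusted p = 0.00011), and 5C-F was 1.81 log2 units above 5C (adjusted p = 0.00012). E-cadherin (Cdh1), in contrast, was low in 5C-G, at 9.66 and 3.17 FPKM against 31.7 and 40.4 in 5C-F and 32.2 and 24.4 in 5C (-2.50 ± 0.35, adjusted p = 0.00012). The tight junction genes Cldn2, at 6.23 and 2.50 against 34.4 and 34.5 FPKM (-2.98 ± 0.28, adjusted p = 4.4e-06), and Ocln (-2.57 ± 0.48, adjusted p = 0.0013) were lower as well.

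Of 17 collagen and matrix genes 4 were higher in 5C-G and 0 lower (median 0.61), and against 5C the list's medians were 0.04 in 5C-G and -0.68 in 5C-F. Col3a1 had 287 and 288 FPKM in 5C-G, 127 and 117 in 5C-F and 246 and 240 in 5C (1.27 ± 0.15, adjusted p = 2.9e-05). The fibrillar collagen gene Col1a1 had 547 and 727 FPKM in 5C-G, 298 and 320 in 5C-F, 448 and 467 in 5C and 383 and 400 in DMSO (1.09 ± 0.18, adjusted p = 0.00055). Col1a1 and the matrix glycoprotein Sparc (1.18 ± 0.18, adjusted p = 0.00024) fell under the size threshold without 5C-G B (0.77 and 0.83), and Col1a1 also once GC content and gene length were adjusted for (0.83). Col5a1 was the fourth (1.26 ± 0.17, adjusted p = 8.5e-05).

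Of 15 matrix proteases and inhibitors 2 were higher and 1 lower in 5C-G (median 0.33), where 3.76% and 4.27% of all tested genes were. The metalloproteinase inhibitor Timp1 was among the higher, with 493 and 721 FPKM in 5C-G, 195 and 210 in 5C-F and 257 and 257 in 5C (1.64 ± 0.23, adjusted p = 0.00011). The macrophage elastase Mmp12 was lower, at 1.88 and 1.17 against 6.42 and 8.11 FPKM (-2.23 ± 0.26, adjusted p = 2.3e-05). The number lower was 3 without 5C-G A and 2 without 5C-F B. Of 21 TGFβ signalling genes 1 was higher, the activin subunit Inhbb (1.29 ± 0.22, adjusted p = 0.00073), and 1 lower, the stress-induced hormone Gdf15 (-1.06 ± 0.24, adjusted p = 0.0058; -0.98 without 5C-F B, not called), with a median of 0.07 (-0.042 without 5C-G A and -0.039 without 5C-F A), where 3.76% of all tested genes were called higher and 4.27% lower. Without 5C-G A or without 5C-G B 2 were higher.

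Of 20 cell cycle genes 2 were higher in 5C-G, where 3.76% of all tested genes were, and 0 lower (median 0.46). They were the mitotic cyclins Ccnb1, at 4.34 and 4.13 against 1.73 and 1.59 FPKM (1.39 ± 0.28, adjusted p = 0.0025), and Ccnb2 (1.22 ± 0.23, adjusted p = 0.0014), which fell to 1.00, just under the threshold, without 5C-G B. Without 5C-G A 1 was lower. Of 15 CDK inhibitor and p53 target genes 1 was higher beside the same share of all genes (median 0.42), the senescence-linked inhibitor gene Cdkn2a with 81.4 and 105 FPKM in 5C-G, 30.1 and 34.3 in 5C-F and 25.4 and 19.9 in 5C (1.58 ± 0.30, adjusted p = 0.0015). Without 5C-F B 2 were higher.

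Of 11 targets of the antioxidant regulator NRF2 3 were lower and 1 higher in 5C-G (median -0.47). The lower genes supply glutathione. Gclc, which makes its precursor, had 10.8 and 7.33 FPKM in 5C-G, 43.3 and 42.8 in 5C-F and 32.1 and 29.0 in 5C (-2.23 ± 0.20, adjusted p = 2.3e-06). The cystine carrier Slc7a11 was at 0.355 and 0.303 against 1.70 and 1.70 FPKM (-2.34 ± 0.29, adjusted p = 4.4e-05), and Gclm at -1.04 ± 0.18 (adjusted p = 0.00068; -0.89 without 5C-G B and -0.90 without 5C-F A, not called). Haem oxygenase (Hmox1), which macrophages express strongly, was the higher gene, at 153 and 154 against 57.1 and 74.6 FPKM (1.26 ± 0.17, adjusted p = 7.2e-05). Of 15 genes of the ATF4 and unfolded protein response 0 were called in either direction (median 0.05), where 8.03% of all tested genes were. That count held by edgeR with adjusted or unadjusted p and by DESeq2. Adjusting for GC content and gene length gave 1 lower. With 1 library left out the median ran from -0.014 to 0.30.

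Some of the strongest differences belonged to no list. On the higher side Ifi27l2a, an interferon-induced gene, had 280 and 462 FPKM in 5C-G, 34.0 and 54.4 in 5C-F, 17.8 and 27.6 in 5C and 297 and 276 in DMSO (3.14 ± 0.35, adjusted p = 1.8e-05). The secreted neuropeptide precursor Vgf was at 7.41 and 9.57 against 0.982 and 1.42 (2.87 ± 0.34, adjusted p = 2.9e-05), and only 5C-G was high in these groups. Adcyap1r1, a receptor that couples to adenylate cyclase, had 11.1 and 9.27 FPKM in 5C-G, 1.51 and 1.81 in 5C-F, 5.24 and 5.66 in 5C and 7.25 and 7.69 in DMSO (2.65 ± 0.23, adjusted p = 2.0e-06), so 5C-F alone was low. The transcription factor gene Ascl2 (2.45 ± 0.54, adjusted p = 0.0052) was lost without 5C-G B (2.02) and without 5C-F B (1.83).

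On the lower side Cxcl13, a B-cell chemokine, had 1.95 and 3.21 FPKM in 5C-G, 48.4 and 48.7 in 5C-F, 25.5 and 30.7 in 5C and 16.1 and 15.8 in DMSO (-4.17 ± 0.36, adjusted p = 1.9e-06). The lymphotoxin subunit Ltb was at 0.697 and 0.253 against 4.84 and 9.40 FPKM (-3.89 ± 0.67, adjusted p = 0.00070). Slc25a48, a mitochondrial carrier, was at 0.866 and 0.600 against 10.2 and 11.2 FPKM (-3.84 ± 0.28, adjusted p = 5.5e-07), and the tight junction gene Cldn6, which is mostly fetal, at 1.44 and 0.732 against 9.02 and 17.9 (-3.60 ± 0.38, adjusted p = 1.1e-05). For all 4 of these genes the 5C-G libraries were below both 5C libraries and the 5C-F libraries above them.

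**Figure D5:**
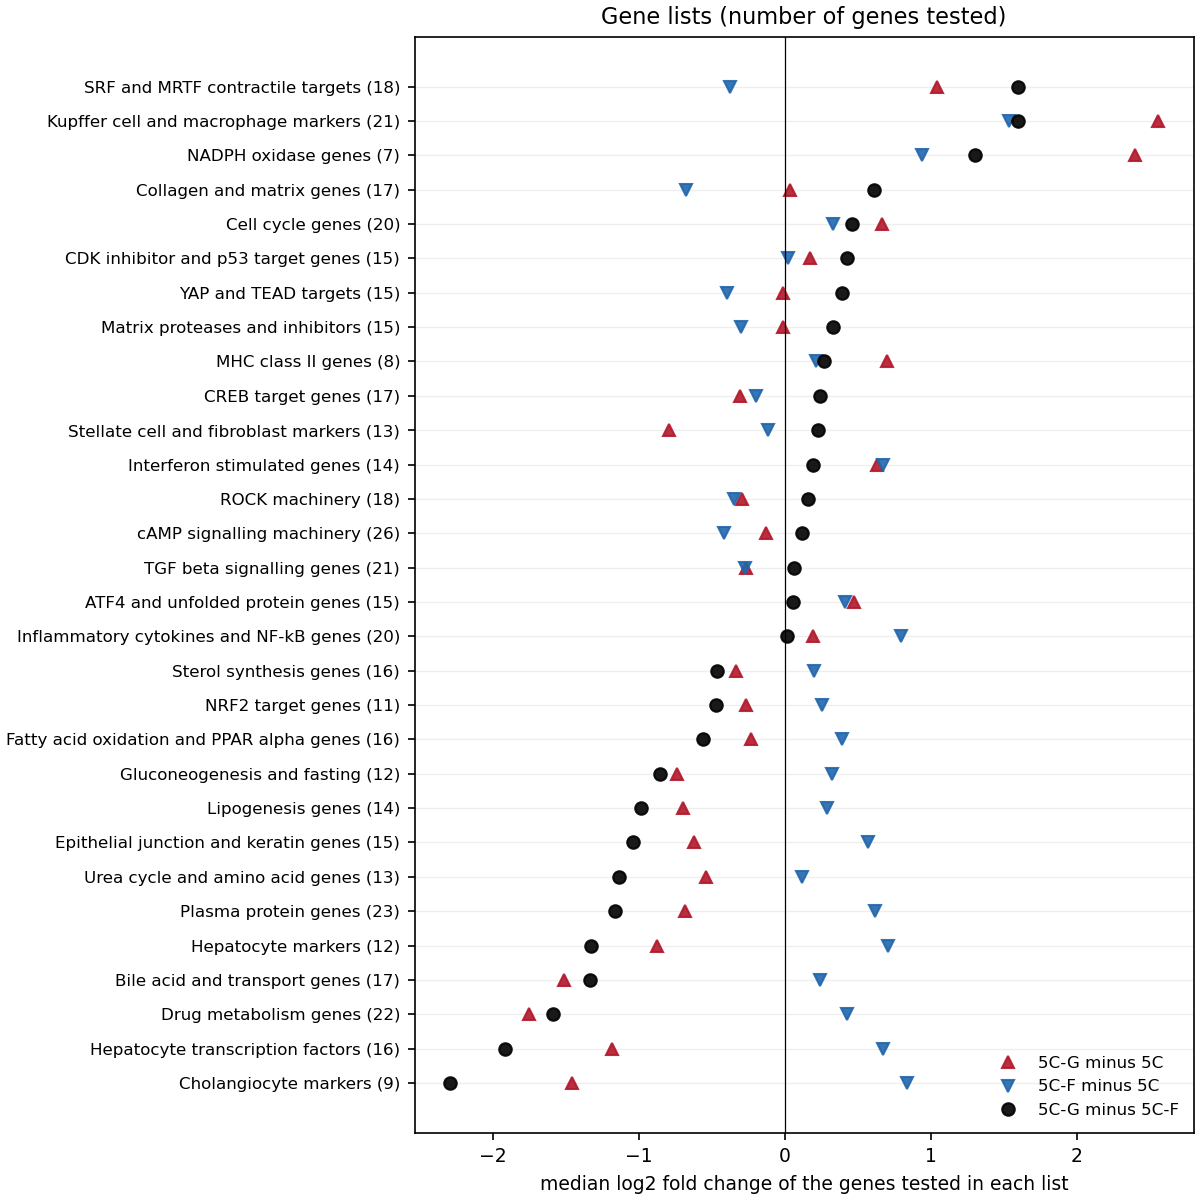
Median log2 difference of 30 gene lists (rows) for 5C-G minus 5C-F, 5C-G minus 5C and 5C-F minus 5C (horizontal axis, log2 units). Macrophage genes lie above 5C in both removals (2.56 in 5C-G and 1.54 in 5C-F). Contractile genes lie above 5C in 5C-G and below it in 5C-F (1.04 and -0.38). Hepatocyte transcription factors lie below 5C in 5C-G and above it in 5C-F (-1.18 and 0.67). These are medians, with no test.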

How the data were processed

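RNA was extracted from the cultured cells of 13 samples with the EasyPure RNA kit, made into NEBNext Ultra libraries and sequenced with paired ends. The authors deposited 1 table of raw read counts per gene and 1 of FPKM. The submitters' processing notes name featureCounts, Subread, DESeq2 and GRCm39, with no versions. How the deposited FPKM were scaled is not given in the sources used here, and they are used as levels only.

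The counts were fitted with edgeR 4.0.16 (R 4.3.3), with TMM factors and filterByExpr (minimum count 10) over all 7 groups, so that the groups share 1 spread (common coefficient of variation 0.261, 6 residual degrees of freedom). The quasi-likelihood test was adjusted by Benjamini-Hochberg over 19884 genes. It was tested on simulated data first. Alternatives used DESeq2 1.42.0, limma 3.58.1 on log2(FPKM + 1 or 0.1), other scalings, filters and subsets of libraries.

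The comparison, its members and the gene lists were chosen with earlier results of these data known. Named genes are the 12 with the strongest difference in each direction (called, no overlap, mean of at least 5 FPKM, no predicted models), called members of each list by size and uncalled ones by level, and a fixed set that includes Acta2, Alb, Hnf4a, Nr4a1, Pck1, Rock1 and Rock2. Exceptions are stated where they occur, and some genes are not reported here. Gene coordinates are those of GENCODE on GRCm39.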

Additional observations from a re-analysis of the deposited data

How the results depend on the processing

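Over 15 alternatives the count of calls stayed within 1.5 times the reported count except with limma on log2(FPKM + 1), which called 881 genes, 357 higher and 524 lower. With 1 library left out, 1158 to 2007 genes were called, 515 to 972 of them higher. Of 107 called genes named in the text, 79 were called in the same direction in every alternative that gave a value. With at least 10 counts in every library, 119 of the 131 named genes had one. Calls were lost with only the 4 libraries of the groups in the fit for Rnd1, Il6, Onecut1, Apoe, Epcam and S100a8, with the GC content and length offset for Rnd1, Apoe, Pde3b, Col1a1 and Gclm, with total counts only for Rnd1, Apoe and Epcam, and by DESeq2 for Apoe and Epcam.

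Of 32 list medians 8 took the other sign in some alternative. The median of the ROCK machinery list ran from -0.024 to 0.27 when 1 library was left out. The median of the liver endothelial markers was -0.039 with at least 10 counts in every library and -0.034 with only the 4 libraries of the 2 groups in the fit. Over all alternatives the median ran from -0.12 to 0.25 for the cyclic AMP machinery, -0.12 to 0.50 for stellate cell markers, -0.18 to 0.61 for interferon stimulated genes, -0.15 to 0.69 for cytokines, -0.056 to 0.13 for TGFβ genes and -0.014 to 0.30 for ATF4 genes. Medians that kept their sign but moved by over 1.5 times in some alternative ran from 0.24 to 0.66 for YAP targets, 0.12 to 0.40 for CREB targets, -2.64 to -1.05 for cholangiocyte markers, 0.045 to 1.28 for lymphocyte and neutrophil markers, -1.57 to -0.85 for bile acid and transport genes, -1.35 to -0.48 for urea cycle and amino acid genes, -0.65 to -0.28 for sterol synthesis, 0.14 to 0.36 for MHC class II genes, 0.30 to 0.61 for cell cycle genes and 0.18 to 0.63 for CDK inhibitor and p53 genes. Limma's differences on log2(FPKM + 1) are smaller for genes at low levels by construction. With 1 library left out, Rock1 ran from -1.03 to 0.0055, Rock2 from -0.32 to 0.46, Cyp3a11 from -0.016 to 1.05, Adcy6 from -0.24 to 1.01 and Vcl from -0.10 to 1.43. The cause was not tested.

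The table's columns number the libraries of each group 1 and 2, but no label ties equal numbers to a shared animal or batch, and equally numbered 5C-G and 5C-F libraries did not deviate together (correlation -0.0011 across 19884 genes, which are not independent). With that number as a replicate block, an alternative chosen after seeing the data, 1680 genes were called, 790 higher and 890 lower, and every call of a named gene stayed the same. With 2 libraries a group, precision is limited by their spread, and calls lost in some alternatives were found at low levels (Onecut1, Il6) and at high ones (Apoe). The log2 difference of a gene rose weakly with its GC content (rank correlation 0.181 across 19787 genes, which are not independent), as did the difference between the 5C-G libraries (0.293) and that between the 5C-F libraries (0.330).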
